A study of Mus musculus with 41 samples.

Results

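The 9 genes described here encode receptors and integrin chains that place B cells within the spleen and let them leave it, together with 1 transcription factor of that programme. They are the sphingosine-1-phosphate receptor S1pr1, the chemokine receptors Ccr7, Cxcr5, Cxcr4 and Ccr6, the oxysterol receptor Gpr183, the integrin chains Itga4 and Itgb7, and the Krüppel-like factor Klf2. They were taken by symbol, 9 of 50763 rows of the gene count table, and all 9 were also present in the TPM table. B cell subsets were sorted from spleens of mice aged 3 to 5 months and sequenced as bulk RNA. The mutant groups, labelled 1Mek2, carried floxed Mek1 on both alleles, 1 deleted Mek2 allele (Mek2+/-) and the Vav1-icre transgene, whose Vav1 promoter is active across blood cells and not in B cells alone. The comparison groups were wild type (wt). In the order 1Mek2 then wt, there were 3 and 3 Immature libraries (sorted as B220+ CD93+ CD138-), 4 and 4 germinal centre (GC) libraries (GL7+ FAS+), 3 and 3 ABC libraries (a gate the labels do not state), 4 and 4 Follicular libraries (CD21+ CD23+), 3 and 3 MarginalZone libraries (CD21+ CD23-), and 3 and 3 Plasma libraries (B220+ CD138+). These 40 libraries came from 16 mice, so several libraries share an animal. A further Immature library, labelled 1Mek2 but with Mek1ff in its column name, was left out of every comparison. The same animal, 565, also gave GC_wt replicate 4, whose column name reads Mek1ff too but whose label is wt, so 1 animal carries both genotype labels. That GC library was kept under its label, and the GC results are given with and without it.

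As background, circulating and resident B cells are steered by a small set of G protein-coupled receptors. S1PR1 draws cells towards sphingosine-1-phosphate in blood and lymph and holds marginal zone B cells in place, CXCR5 leads them to CXCL13 in follicles, CCR7 to CCL19 and CCL21 in the T cell zone, CXCR4 to CXCL12 in the germinal centre dark zone and the bone marrow, GPR183 to oxysterols at the follicle edge, and CCR6 to CCL20. The alpha4 integrin chain pairs with beta1 to bind VCAM1 or with beta7 to bind MAdCAM1, and KLF2 is known in mouse lymphocytes to sustain S1pr1 and Itgb7 transcription and to be induced through ERK5 and MEF2 factors, a kinase branch separate from MEK1 and MEK2.

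Total gene-span counts ranged from 7883989 to 34925667 per library, and the exon reads behind the TPM values from 7897848 to 29204625. CPM values below are from gene-span counts, scaled by library total and TMM factor, and TPM, which corrects for length, is used to compare genes. The genotype labels were checked on the targeted genes. Map2k1, which encodes MEK1, had 84.0 to 485 CPM in libraries labelled 1Mek2, against 52.5 to 1379 CPM in wt libraries. The 1Mek2 libraries were all lower in 1 of 6 subsets, ABC, and overlapped wt in the other 5. Map2k2, which encodes MEK2, went against the Mek2+/- label, with 1Mek2 libraries all higher than wt in 3 of 6 subsets (GC, MarginalZone and Plasma), all lower in none, and means of 183 CPM in 1Mek2 and 88.7 CPM in wt over all libraries. Gene-level reads therefore gave no check of the mutant labels, and every genotype statement below refers to the labels. In ABC, Follicular, MarginalZone and Plasma the libraries also fell into 2 sets by their values, 7 of type 1 and 19 of type 2, a division that the labels do not give. An index built from 200 genes, none of them a member, ran from 2.09 to 3.49 in type 1, from -4.53 to 0.14 in type 2, and from 0.95 to 3.11 in the Immature and GC libraries, which were not typed. Sex is not labelled. Reads of the Y-linked gene Ddx3y marked 3 animals as male, which gave 2 of 3 1Mek2 and 1 of 3 wt libraries in ABC and in MarginalZone, 2 of 4 and 1 of 4 in Follicular, 1 of 3 and 0 of 3 in Plasma, and none in Immature or GC.

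On GRCm39, per the count table, the receptor genes span chr3:115504082-115508704 (S1pr1), chr11:99035025-99045903 (Ccr7), chr9:44423084-44437741 (Cxcr5), chr1:128515936-128520036 (Cxcr4) and chr14:122189743-122202605 (Gpr183) on the minus strand, and chr17:8454875-8477353 (Ccr6) on the plus strand. Klf2 lies at chr8:73072906-73075498 and Itga4 at chr2:79084767-79163458 on the plus strand, and Itgb7 at chr15:102124429-102141840 on the minus strand. Gpr183 lies within the span of Ubac2, Cxcr5 overlaps Bcl9l, Itga4 overlaps Gm39866 and Cerkl, and Ccr6 overlaps Gm33799, so reads of these members could be split with or lost to a neighbour.

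Of the 9 members, 6 had a promoter entry in RefSeq (GRCm38.p6, 250 bases before the start to 50 after it). The promoters of Klf2 and of both integrin chains are printed because CACCC, the core of the KLF binding motif, and the MEF2 consensus motif bear on the Klf2 programme. Capitals mark those motifs on either strand.
Klf2, chr8:72318812-72319111, plus strand: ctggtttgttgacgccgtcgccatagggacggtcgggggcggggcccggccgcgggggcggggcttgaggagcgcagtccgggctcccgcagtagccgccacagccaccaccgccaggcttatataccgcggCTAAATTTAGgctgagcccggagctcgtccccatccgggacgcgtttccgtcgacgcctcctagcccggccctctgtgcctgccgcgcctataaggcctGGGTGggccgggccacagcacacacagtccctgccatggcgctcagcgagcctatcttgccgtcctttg
Itgb7, chr15:102231886-102232185, minus strand: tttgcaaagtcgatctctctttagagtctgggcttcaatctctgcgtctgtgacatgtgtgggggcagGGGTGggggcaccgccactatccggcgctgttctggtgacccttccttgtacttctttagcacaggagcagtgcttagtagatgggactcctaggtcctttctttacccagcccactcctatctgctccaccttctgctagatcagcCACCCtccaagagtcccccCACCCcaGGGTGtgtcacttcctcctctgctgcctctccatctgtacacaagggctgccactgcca
Itga4, chr2:79255176-79255475, plus strand: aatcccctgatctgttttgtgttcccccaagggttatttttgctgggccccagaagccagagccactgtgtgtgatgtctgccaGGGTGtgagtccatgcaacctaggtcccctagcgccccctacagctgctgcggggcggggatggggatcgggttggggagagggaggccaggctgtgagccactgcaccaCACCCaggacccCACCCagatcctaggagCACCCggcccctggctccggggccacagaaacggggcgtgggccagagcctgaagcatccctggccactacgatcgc
Itgb7 and Itga4 held 4 CACCC matches each, Klf2 and Cxcr4 1 each, and Gpr183 and the 2 Ccr6 promoters 0. At least 1 match was present in 57.5% of 32851 mouse promoters of this length and at least 3 in 9.35%. The MEF2 consensus, which reads as itself on the other strand, was found once in the Klf2 promoter, in none of the other members' promoters, and in 3.19% of all promoters; no match overlapped a CACCC match. The matches describe these windows only, and factor binding was not measured.

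In TPM, the members spanned a wide range of levels, and most neighbouring subsets overlapped. S1pr1 reached the highest level of any member. It averaged 2347 ± 264 TPM in 1Mek2 MarginalZone libraries (SD, n = 3), where it did not overlap the next subset, ABC, at 501 ± 278 TPM. In wt, ABC and MarginalZone S1pr1 overlapped, at 1806 ± 211 and 1346 ± 1217 TPM (n = 3 each). At the other end, S1pr1 averaged 43.7 ± 57.3 TPM in 1Mek2 GC and 32.1 ± 29.9 TPM in wt GC (n = 4 each), and wt GC lay below every other wt subset without overlap.

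**Figure D1:**
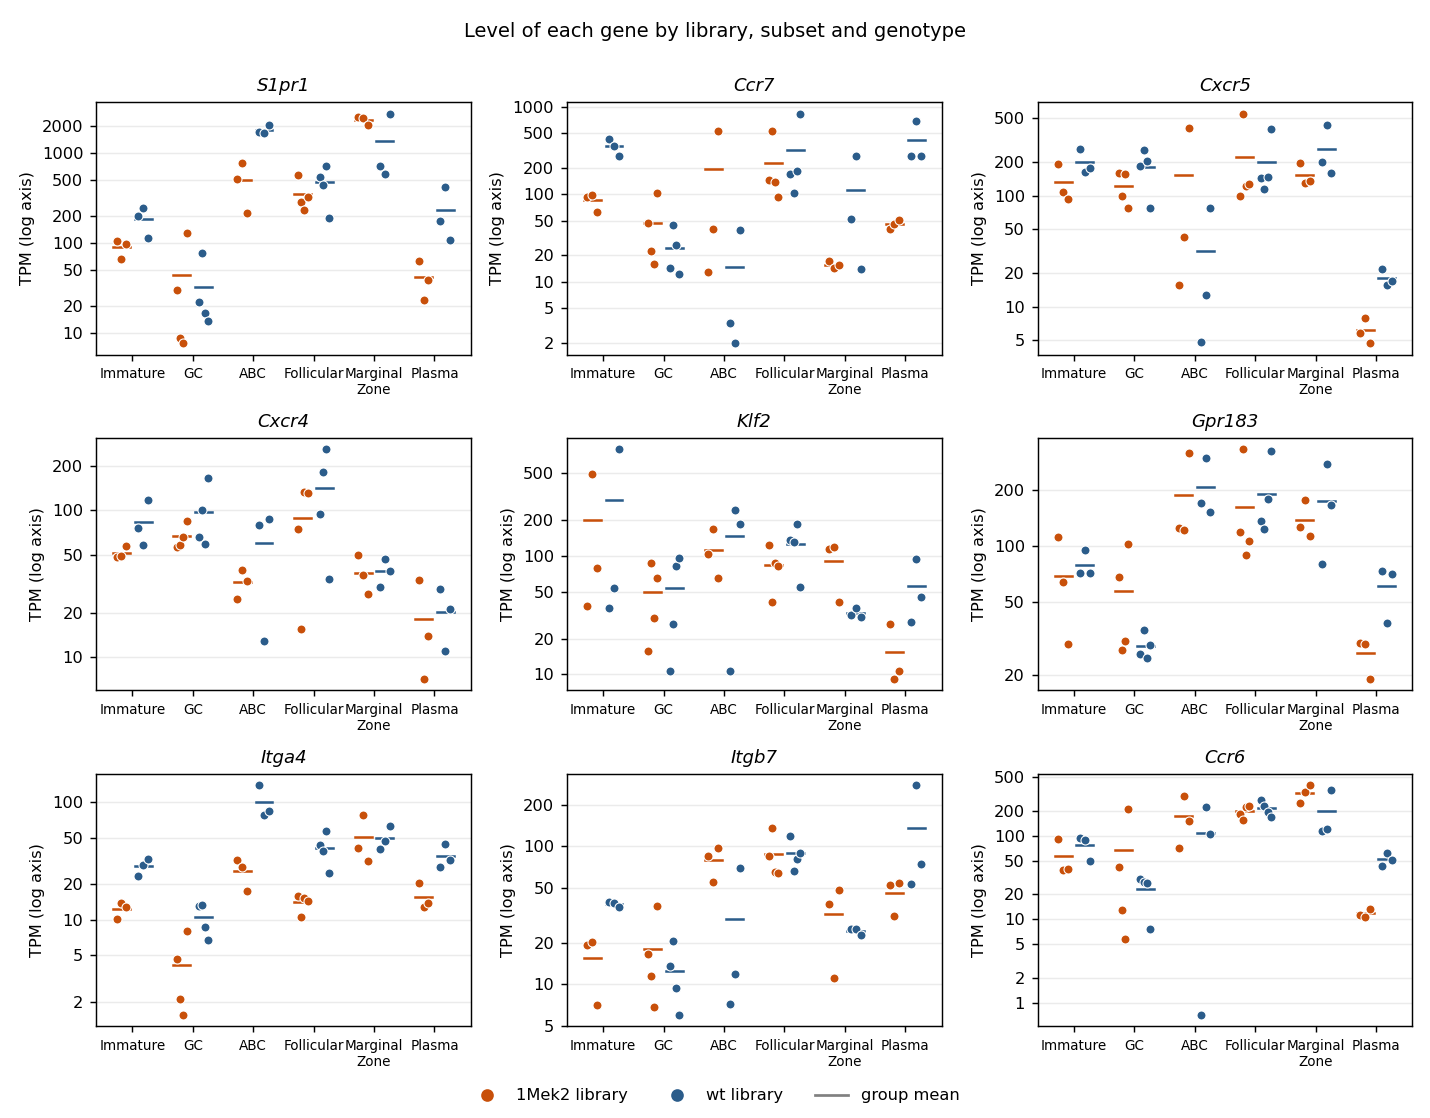
TPM (log axis) of the 9 genes in each of the 40 libraries, by subset, with libraries labelled 1Mek2 left of wt in each subset and lines at the group mean. S1pr1 in 1Mek2 MarginalZone averaged 2347 TPM, the mean of Cxcr5 was lowest in Plasma, and that of Itga4 was lowest in GC.

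Cxcr5 was low in Plasma, at 6.17 ± 1.64 TPM in 1Mek2 and 18.4 ± 3.36 TPM in wt libraries, and the 1Mek2 Plasma libraries lay below all other 1Mek2 subsets. Ccr6 had the same lowest subset in 1Mek2 (Plasma, 11.8 ± 1.46 TPM), whereas in wt it was lowest in GC (23.1 ± 10.4 TPM), in each case without overlap with the next subset. Itga4 was lowest in GC in both genotypes, at 4.10 ± 2.94 TPM in 1Mek2 and 10.5 ± 3.32 TPM in wt libraries, again without overlap. Its partner chain Itgb7 had its highest mean in 1Mek2 Follicular (87.7 ± 33.6 TPM) and wt Plasma (135 ± 123 TPM) libraries, and was lowest in 1Mek2 Immature (15.6 ± 7.38 TPM) and wt GC (12.4 ± 6.29 TPM). Gpr183 means ran from 26.2 ± 6.16 TPM in 1Mek2 Plasma to 189 ± 113 TPM in 1Mek2 ABC libraries, and in wt from 28.8 ± 4.57 TPM in GC to 209 ± 81.2 TPM in ABC libraries. The top 3 subsets for Gpr183, ABC, Follicular and MarginalZone, overlapped in each genotype. Cxcr4 had a narrower range of means, with Follicular highest (88.7 ± 55.8 TPM in 1Mek2, 143 ± 98.9 TPM in wt) and Plasma lowest (18.1 ± 13.7 TPM in 1Mek2, 20.4 ± 8.98 TPM in wt). For Ccr7 and Klf2 the order of subsets was not resolved, because the libraries of 1 group often differed more than the groups. In gene-span CPM, the highest library of a group exceeded the lowest by a median of 4.79 times for Ccr7 and 3.89 times for Klf2 over the 12 groups, and by up to 37.8 and 23.9 times.

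Each subset was then set against Follicular B cells within a genotype. In GC libraries most of the receptors and both integrin chains were low. In wt, 5 of the 8 members with counts were lower in GC than in Follicular libraries and none was higher (edgeR quasi-likelihood test, Benjamini-Hochberg adjusted p below 0.05), against 25.1% of all genes called in either direction and 10.5% lower. The median log2 fold change was -2.66 over the members and 0.04 over all genes tested. In bulk RNA, fewer expressing cells and less RNA per cell cannot be told apart. S1pr1 had 12.2, 66.7, 22.2 and 8.99 CPM in wt GC libraries, against 604, 534, 759 and 239.9 CPM in wt Follicular libraries. The groups did not overlap, and the log2 fold change was -4.00 ± 0.53 (SE; adjusted p = 0.000212). Ccr7, the T zone receptor, had 4.75, 24.7, 22.9 and 5.57 CPM in GC, against 130.4, 94.6, 145 and 668 CPM in Follicular libraries (log2 fold change -4.01 ± 0.71, adjusted p = 0.00148). Ccr6 fell by 3.24 ± 0.39 on the log2 scale, Itgb7 by 3.00 ± 0.35 and Itga4 by 2.31 ± 0.36, each without overlap. Without GC_wt replicate 4 the same 5 genes passed, with S1pr1 at -3.78 ± 0.57 (adjusted p = 0.00159) and Ccr7 at -3.83 ± 0.83 (adjusted p = 0.0103). Gpr183, which has no gene-span counts, had 26.1, 35.1, 24.9 and 29.0 TPM in wt GC, against 136, 124, 181 and 326 TPM in wt Follicular libraries. On the log2(TPM + 1) scale it fell by 2.59 ± 0.35 (limma, adjusted p = 0.000399), where 22.6% of entries were called. The follicle receptor Cxcr5 did not pass (-0.54 ± 0.39, adjusted p = 0.344), nor did Cxcr4 (-0.57 ± 0.50, adjusted p = 0.448) or Klf2 (-1.04 ± 0.65, adjusted p = 0.265).

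In 1Mek2 libraries the GC comparison called 5 of 8 members, all lower, against 30.9% of all genes in either direction and 14.6% lower. The members' median was -2.22, with -0.09 over all genes. S1pr1 had 33.7, 12.4, 13.3 and 131 CPM in 1Mek2 GC libraries, against 1195, 445, 317 and 476 CPM in 1Mek2 Follicular libraries (log2 fold change -3.58 ± 0.79, adjusted p = 0.00535). The highest GC library, replicate 4, stayed below the lowest Follicular one. Ccr7 (-2.76 ± 0.67), Itgb7 (-2.69 ± 0.50) and Itga4 (-2.41 ± 0.49) also fell, and Cxcr5 fell by 1.25 ± 0.37 (adjusted p = 0.0242), a call lost when any single GC library was left out (adjusted p up to 0.0786). Ccr6 had 63.8, 27.4, 15.6 and 322 CPM in 1Mek2 GC libraries, against 597, 328, 439 and 498 CPM in 1Mek2 Follicular libraries. Replicate 4 alone was near the Follicular level, and the log2 fold change was -2.02 ± 0.78 (adjusted p = 0.0691) with it and -3.63 ± 0.55 (adjusted p = 0.0017) without it. Gpr183 differed by -1.48 ± 0.53 on the log2(TPM + 1) scale (adjusted p = 0.0574), where 26.5% of entries were called. It passed without GC_1Mek2 replicate 4 (-1.82, adjusted p = 0.031) and in edgeR on exon reads (-1.79, adjusted p = 0.0266). Most GC and Follicular libraries came from different mice, and the type index of GC libraries was nearer that of type 1. The type 1 Follicular libraries, 1 per genotype, had 445 CPM of S1pr1, 508 of Ccr7, 74.6 of Itga4, 379 of Itgb7 and 328 of Ccr6 in 1Mek2, and 239.9, 668, 173, 211 and 313 CPM of the same genes in wt, all above the GC libraries of their genotype. For Cxcr4 and Klf2 the type 1 Follicular libraries lay within or below the GC range.

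**Figure D2:**
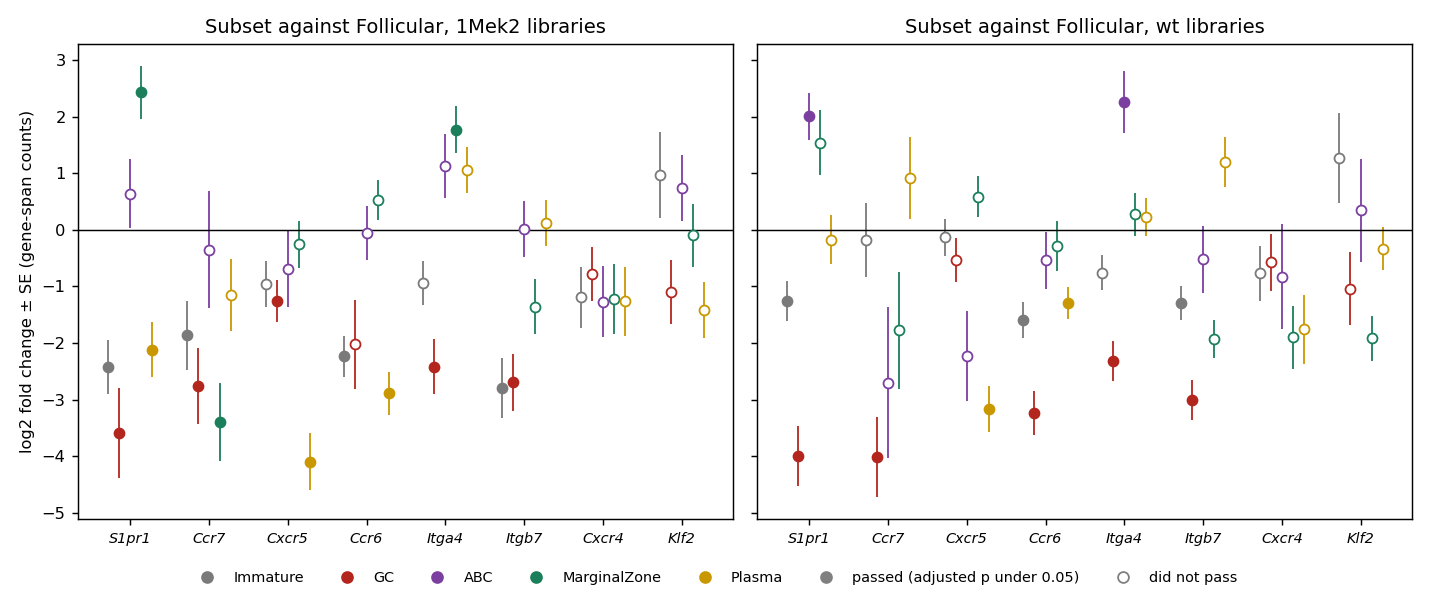
Log2 fold change from gene-span counts of 8 genes in 5 subsets against Follicular, with 1Mek2 libraries in the left panel and wt libraries in the right panel. Bars are SE and filled points passed the adjusted p threshold of 0.05; the GC points lie below 0 for all 8 genes in both panels, with 5 filled in each.

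Immature libraries had less Ccr6, S1pr1 and Itgb7 in gene-span counts. In wt, 3 of 8 members were lower and none higher than in Follicular libraries, against 39.4% of genes called and 7.15% lower, with a members' median of -0.76 and an all-gene median of 0.47. Ccr6 had 113, 79.6 and 51.4 CPM in wt Immature, against 506, 452, 350.2 and 313 CPM in wt Follicular libraries, with no overlap (log2 fold change -1.59 ± 0.32, adjusted p = 0.00131). Itgb7 fell by 1.30 ± 0.30 (adjusted p = 0.0034) and S1pr1 by 1.25 ± 0.35 (adjusted p = 0.0111). The S1pr1 call was lost without Immature_wt replicate 3 (adjusted p = 0.0596). On log2(TPM + 1), limma called only Ccr6 in wt, where 2.7% of all entries were called. S1pr1 (adjusted p = 0.118) and Itgb7 (adjusted p = 0.0585) did not pass there. In 1Mek2 the same TPM test called S1pr1, Itgb7 and Ccr6, against 14.2% of all entries. In 1Mek2, 4 of 8 were lower and none higher, against 30.9% of genes called and 12.3% lower, with medians of -1.53 for the members and -0.02 for all genes. Itgb7 had 32.9, 66.2 and 14 CPM in 1Mek2 Immature libraries, against 344, 379, 174 and 186 CPM in 1Mek2 Follicular libraries (log2 fold change -2.79 ± 0.53, adjusted p = 0.00314). S1pr1 (-2.42 ± 0.48), Ccr6 (-2.23 ± 0.36) and Ccr7 (-1.86 ± 0.61) fell as well. The Ccr7 call (adjusted p = 0.0369) was lost without Immature_1Mek2 replicate 2 or 4 or Follicular_1Mek2 replicate 1 (adjusted p up to 0.203). Most Immature and Follicular libraries came from different mice, and the type index of Immature libraries was nearer that of type 1. The type 1 Follicular libraries had 313 CPM of Ccr6, 211 of Itgb7 and 239.9 of S1pr1 in wt. In 1Mek2 they had 328, 379 and 445 CPM of the same genes. These values lay above the Immature libraries of their genotype. The part of library type in these differences was not tested.

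MarginalZone B cells carried more S1pr1 and Itga4 and less Ccr7 in the 1Mek2 groups, where 3 of 8 members passed, against 2.78% of all genes called (1.4% higher and 1.39% lower). The members' median was -0.18, with 0.08 over all genes. S1pr1 had 3927, 3204 and 3351 CPM in 1Mek2 MarginalZone libraries, against 1195, 445, 317 and 476 CPM in 1Mek2 Follicular libraries. The groups were fully separate (log2 fold change 2.43 ± 0.47, adjusted p = 0.031). Itga4 had 513, 778 and 452 CPM in MarginalZone, against 227, 74.6, 167 and 171 CPM in Follicular libraries (1.77 ± 0.41, adjusted p = 0.0457). Ccr7 had 18.2, 37.3 and 18.7 CPM in MarginalZone, against 202, 508, 122 and 91.4 CPM in Follicular libraries (-3.39 ± 0.69, adjusted p = 0.0345). Leaving out any of 6 libraries ended the S1pr1 call (adjusted p up to 0.0813) and the Itga4 call (up to 0.126), and any of 5 the Ccr7 call (up to 0.0849). With the animal as a block, Ccr7 alone stayed past the threshold (-2.70, adjusted p = 0.0155). S1pr1 was then at 2.28 (adjusted p = 0.128) and Itga4 at 1.48 (adjusted p = 0.330). Only animals 634 and 654 gave both subsets, so the block estimates rest on their libraries alone. In wt, 0 of 8 members passed, against 0.34% of all genes, of which 1272 had an unadjusted p below 0.05, and the medians were -1.03 for the members and 0.02 for all genes. DESeq2 called 3 of the 8 there, all lower and none of them S1pr1, Itga4 or Ccr7. They were Cxcr4 (-1.86, adjusted p = 0.0465), Klf2 (-1.88, adjusted p = 0.000565) and Itgb7 (-1.89, adjusted p = 4.97e-05). The share of all genes called by DESeq2 is not given here. Over the alternative settings 1 to 501 genes were called in this contrast. Itgb7 also passed in edgeR without a low-count filter (-1.96, adjusted p = 0.0477). The animal block, which rests on animals 412 and 562 as the only ones with both subsets, called Ccr7 (-2.17, adjusted p = 0.0181). S1pr1 was uneven among wt MarginalZone libraries, at 707, 693 and 3147 CPM, against 604, 534, 759 and 239.9 CPM in wt Follicular libraries (1.54 ± 0.57, adjusted p = 0.467).

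ABC libraries of wt mice had more S1pr1 and more Itga4 than wt Follicular libraries, 2 of 8 members called against 20.2% of all genes (11.9% higher). The members' median was -0.53 and that of all genes 0.08. S1pr1 had 1834, 1692 and 1899 CPM in wt ABC libraries, against 604, 534, 759 and 239.9 CPM in wt Follicular libraries (log2 fold change 2.01 ± 0.42, adjusted p = 0.012). Itga4 had 2609, 922 and 774 CPM in ABC, against 435, 384, 488 and 173 CPM in Follicular libraries (2.26 ± 0.55, adjusted p = 0.0211). Both were fully separate from Follicular. Without ABC_wt replicate 1, the highest of the 3, the Itga4 difference was 1.27 (adjusted p = 0.0608), and its call was also lost without Follicular_wt replicate 1, 2 or 4 (2.07 to 2.33, adjusted p up to 0.0604). The S1pr1 call was lost without Follicular_wt replicate 2 (adjusted p = 0.0506). Without the animals read as male neither passed (adjusted p = 0.103 for S1pr1 and 0.0966 for Itga4). Cxcr5 had 23.4, 33.3 and 246 CPM in wt ABC, against 447, 428, 433 and 648 CPM in wt Follicular libraries, a difference of -2.23 ± 0.80 (adjusted p = 0.0653) that passed with the animal as a block (-2.70, adjusted p = 0.0304) and with DESeq2 (-2.13, adjusted p = 0.0312). Without ABC_wt replicate 3 it was -4.09 (adjusted p = 0.00459), and Ccr7 was then at -6.40 (adjusted p = 0.0109). On log2(TPM + 1), limma called 3 of 9 members in wt ABC, S1pr1 higher and Ccr7 and Cxcr5 lower, but not Itga4. There 29% of all entries were called, with an all-entry median of -1.16. On exon reads, edgeR kept the S1pr1 and Itga4 calls and also called Ccr7 lower (-3.99, adjusted p = 0.0447). In 1Mek2, 0 of 8 members and 0% of all genes passed, with 1115 genes at an unadjusted p below 0.05. The ABC libraries held markers of other cells. Summed TPM of 4 plasmacytoid dendritic markers were 4850, 2290 and 6.36 in the 1Mek2 ABC libraries and 3146 to 3573 in wt ABC libraries, and 5 pan-B markers summed to 7600 to 12199 in 1Mek2 and 2000 to 4176 in wt. The part of these cells in the ABC results was not tested.

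Plasma libraries had little Cxcr5 and Ccr6. In wt, 2 of 8 members were lower and none higher, against 17.7% of genes called and 5.53% lower, with medians of -0.25 for the members and -0.01 for all genes. Cxcr5 had 62.2, 32.4 and 51.1 CPM in wt Plasma, against 447, 428, 433 and 648 CPM in wt Follicular libraries (log2 fold change -3.16 ± 0.41, adjusted p = 0.00115). Ccr6 fell by 1.29 ± 0.28 (adjusted p = 0.0121). Ccr7 was at 0.91 ± 0.72 (adjusted p = 0.442), and at 2.20 (adjusted p = 0.00235) without the type 1 library Follicular_wt replicate 4. In 1Mek2, 3 of 8 were lower and none higher, against 19.9% of genes called and 5.95% lower, with medians of -1.34 and -0.09. Cxcr5 had 29.9, 36.0 and 21.3 CPM in 1Mek2 Plasma, against 419, 865, 427 and 449.6 CPM in 1Mek2 Follicular libraries (-4.09 ± 0.51, adjusted p = 0.00068). Ccr6 fell by 2.89 ± 0.39 (adjusted p = 0.000903) and S1pr1 by 2.11 ± 0.49 (adjusted p = 0.0129), the S1pr1 call being lost without Plasma_1Mek2 replicate 3 (adjusted p = 0.0783). The animal block, which rests on animals 636 and 654 as the only ones with both subsets, added Itga4, higher by 1.20 (adjusted p = 0.0365). Gpr183 was lower on the log2(TPM + 1) scale in both genotypes, by -2.40 ± 0.50 in 1Mek2 (limma, adjusted p = 0.00706; 40.7% of entries called) and -1.59 ± 0.43 in wt (adjusted p = 0.0209; 31.3% called). The median over all entries was -0.88 in 1Mek2 and -0.63 in wt, and the wt call was lost without Follicular_wt replicate 3 or Plasma_wt replicate 1 or 3 (adjusted p up to 0.0622). In the other subsets Gpr183 did not pass against Follicular with all libraries kept. The log2(TPM + 1) differences were -1.21 ± 0.57 and -1.16 ± 0.35 in 1Mek2 and wt Immature, 0.28 ± 0.60 and 0.17 ± 0.60 in 1Mek2 and wt ABC, and -0.03 ± 0.51 and -0.19 ± 0.53 in 1Mek2 and wt MarginalZone libraries (limma, adjusted p from 0.0879 to 0.981). Without the type 1 library Follicular_wt replicate 4, Gpr183 passed as lower in wt Immature (limma on log2(TPM + 1), -0.87, adjusted p = 0.0118). Plasma libraries also held T cell and myeloid transcripts, given with the genotype values below.

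Between genotypes, the clearest member was Itga4, the alpha4 integrin chain. Averaged over the 6 subsets, with the animal as a random block, it was lower in 1Mek2 by 0.84 ± 0.22 on the log2 scale (limma voom, adjusted p = 0.0144). It was the only one of 8 members called, against 6.06% of 25181 genes called and 1.4% lower. The other 7 had adjusted p between 0.396 and 0.914, and the medians were 0.16 for the members and -0.12 for all genes. Follicular libraries had 227, 74.6, 167 and 171 CPM of Itga4 in 1Mek2, against 435, 384, 488 and 173 CPM in wt. Follicular_wt replicate 4, of type 1, overlapped the 1Mek2 libraries, and the other type 1 library, Follicular_1Mek2 replicate 2, was the lowest. GC libraries had 35.3, 16.1, 14.6 and 46.6 CPM in 1Mek2, against 37.0, 90.3, 76.9 and 30.2 CPM in wt. Immature libraries had 46.2, 96.7 and 80.1 CPM in 1Mek2, against 107, 126 and 145 CPM in wt, without overlap. ABC libraries had 598, 317 and 122 CPM in 1Mek2, against 2609, 922 and 774 CPM in wt, also without overlap. MarginalZone was the exception in direction, with 513, 778 and 452 CPM in 1Mek2, against 378, 339 and 577 CPM in wt. Plasma libraries overlapped, with 404, 232 and 252 CPM in 1Mek2, against 382, 392 and 324 CPM in wt.

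**Figure D3:**
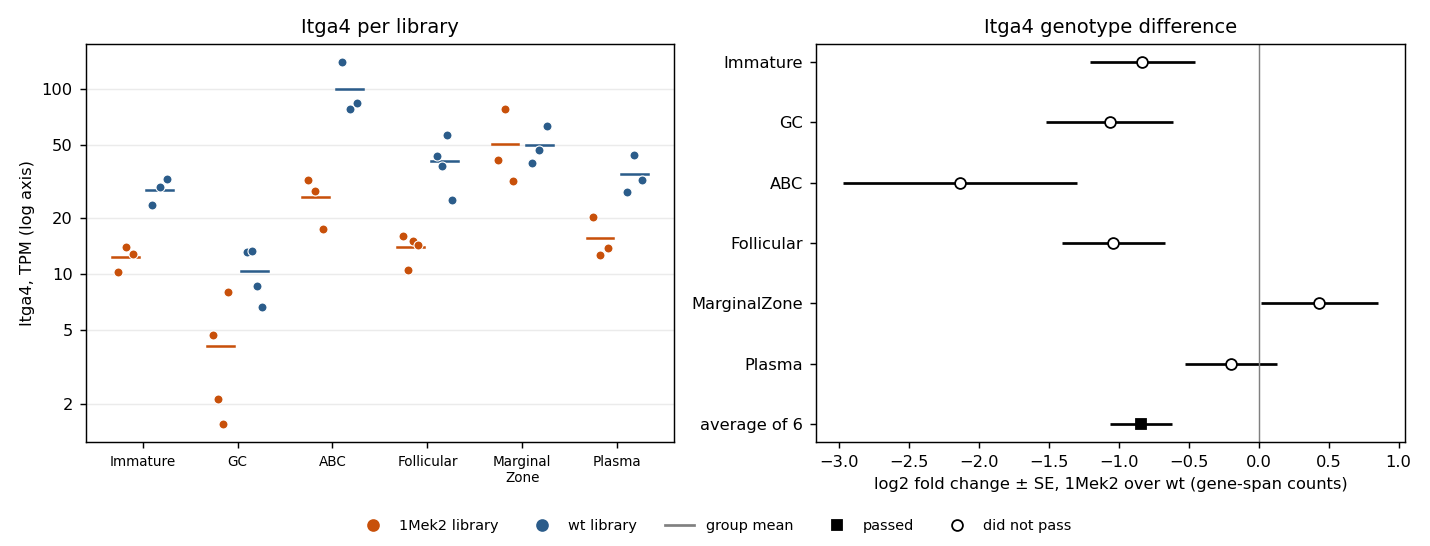
The left panel gives Itga4 in TPM (log axis) for each library, by subset, 1Mek2 left of wt, with lines at the group mean. The right panel gives the log2 fold change of 1Mek2 over wt from gene-span counts with its SE, for each subset and for the average of 6; the average alone passed, and MarginalZone alone lay above 0.

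In exon TPM, Itga4 was separate between genotypes in 4 subsets, and the share of all genes separated in this way is not given here. It had 10.5 to 16.1 TPM in 1Mek2 Follicular, against 25 to 56.4 TPM in wt Follicular libraries, and 12.8 to 20.4 TPM in 1Mek2 Plasma, against 27.9 to 43.7 TPM in wt Plasma libraries. Neither pair overlapped, nor did Immature or ABC. The TPM of all entries were shifted as well, with a median log2 difference of -0.40 in Follicular and -0.67 in Plasma, and as CPM of exon reads Itga4 was separate in Immature, ABC and Plasma but not in Follicular. No single subset passed the count test for Itga4. The log2 fold changes of 1Mek2 over wt were -2.13 ± 0.84 in ABC (adjusted p = 0.186), -1.06 ± 0.45 in GC (0.409), -1.04 ± 0.37 in Follicular (0.420), -0.83 ± 0.38 in Immature (0.470), -0.20 ± 0.33 in Plasma (0.832) and 0.44 ± 0.42 in MarginalZone (0.780), as adjusted p from edgeR. A test of whether the genotype difference varied between subsets did not pass for Itga4 (adjusted p = 0.232), and it called 0 of 8 members (0.227 to 0.976) against 2% of all genes. A term for library type brought the Follicular difference past the threshold (-1.05 ± 0.18, adjusted p = 0.040). The types were set from the expression values of these same Follicular libraries, so this fit is not a separate check of the difference. The average effect ranged from -0.98 to -0.76 when each animal was left out, and its call was lost without animal 562 (adjusted p = 0.0511) and without animal 636 (adjusted p = 0.0718). In the left-out Immature library Itga4 was at 24.6 TPM, with 10.3 to 14 TPM in the 1Mek2 Immature libraries and 23.6 to 32.8 TPM in the wt ones. Without animal 565 the average was -0.87 ± 0.22 (adjusted p = 0.0124). Exon reads made up a median of 68.4% of Itga4 gene-span counts in 1Mek2 and 59.4% in wt libraries. Over all genes, the median ratio of exon reads to gene-span counts was also higher in 1Mek2 in each of the 6 subsets, at 77.5% in 1Mek2 and 41.2% in wt ABC, 91.6% in 1Mek2 and 76.2% in wt GC, 77.7% in 1Mek2 and 63.7% in wt Follicular, and 90.4% in 1Mek2 and 79.9% in wt Immature libraries. The gap was smaller in MarginalZone, at 64.7% in 1Mek2 and 60.5% in wt, and in Plasma, at 109% in 1Mek2 and 100.3% in wt. The part of this ratio in the Itga4 result was not tested beyond the exon reads, on which the average was -0.80 (adjusted p = 0.034).

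Ccr7 was the only member that the count test called between genotypes within a subset. In Immature libraries it had 48.3, 96.6 and 42.0 CPM in 1Mek2, against 230.4, 118 and 124 CPM in wt. The groups did not overlap, and the log2 fold change was -1.42 ± 0.39 (adjusted p = 0.0431), 1 of 8 members against 0.933% of all genes called and 0.123% lower. The call ended without 5 of the 6 libraries in turn (log2 fold change -1.81 to -1.01, adjusted p up to 0.453), and with DESeq2 (adjusted p = 0.256), voom (0.0728) or RLE scaling (0.105). In exon TPM the same libraries had 92.9, 99.2 and 62.7 TPM in 1Mek2, against 429, 357 and 275 TPM in wt, and the left-out library had 312 TPM. Other markers moved with this contrast. The 5 Plasma markers summed to 2981 to 6217 TPM in 1Mek2 Immature and 521 to 1502 TPM in wt Immature libraries, and the 6 GC markers to 854 to 1012 TPM in 1Mek2 and 104 to 475 TPM in wt. The 5 pan-B markers summed to 8782 to 10116 TPM in 1Mek2 and 13396 to 14611 TPM in wt, and their part in the Ccr7 difference was not tested.

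In Plasma libraries several receptors were lower in 1Mek2 without passing the count test, which called 0 of 8 members against 0.0605% of all genes, with 2285 genes at an unadjusted p below 0.05. DESeq2 called 3 of the 8, and its own share of all genes is not given here. Over the alternative settings 0 to 1080 genes were called in this contrast. Ccr7 had 64.3, 127 and 101 CPM in 1Mek2 Plasma, against 408, 639.8 and 342 CPM in wt Plasma libraries, without overlap (log2 fold change -2.11 ± 0.42, adjusted p = 0.0756). S1pr1 had 152, 104 and 120.0 CPM in 1Mek2, against 407, 589 and 210.2 CPM in wt (-1.56 ± 0.41, adjusted p = 0.135). Ccr6 had 40.9, 66.4 and 60.3 CPM in 1Mek2, against 139.7, 139 and 149 CPM in wt (-1.23 ± 0.35, adjusted p = 0.152). All 3 genes were separate between genotypes, and the share of all genes separated in this way is not given here. In TPM the same contrast gave differences of -3.03 ± 0.43 for Ccr7, -2.34 ± 0.57 for S1pr1, -2.06 ± 0.34 for Ccr6 and -1.44 ± 0.37 for Cxcr5 (limma, adjusted p = 0.0189, 0.0457, 0.0269 and 0.0474), where 9.62% of entries were called and the median over all entries was itself -0.67. Gpr183 was at -1.15 ± 0.40 (adjusted p = 0.0905), and passed without Plasma_wt replicate 2 (-1.45, adjusted p = 0.0447). The 7 T cell markers summed to 710 to 1272 TPM in 1Mek2 Plasma and 1813 to 4384 TPM in wt Plasma libraries. The 4 NK markers summed to 91.5 to 205 TPM in 1Mek2 and 429 to 1318 TPM in wt, and the 5 macrophage and monocyte markers to 682 to 982 TPM in 1Mek2 and 1293 to 3747 TPM in wt. The 5 pan-B markers ran the other way, at 1398 to 1984 TPM in 1Mek2 and 850.2 to 1092 TPM in wt, and the 7 neutrophil markers overlapped, at 1478 to 8143 TPM in 1Mek2 and 1826 to 4909 TPM in wt. T cells are known to express Ccr7 and S1pr1, and the part of these cells in the Plasma values was not tested.

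In the remaining subsets 0 of 8 members passed between genotypes by edgeR. All-gene shares were 0.054% in GC, 0% in ABC, 0% in Follicular and 0% in MarginalZone, with 2017, 2517, 1570 and 1132 genes at an unadjusted p below 0.05. In GC, 0 of 8 also passed without GC_wt replicate 4. The members' median log2 fold changes were 0.53, 0.78, 0.22 and 0.86 there, with -0.09, 0.03, 0.02 and 0.02 over all genes. S1pr1 in MarginalZone was at 3927, 3204 and 3351 CPM in 1Mek2, against 707, 693 and 3147 CPM in wt (1.28 ± 0.56, adjusted p = 0.551). MarginalZone_wt replicate 3 alone was near the 1Mek2 level. Klf2 had 113, 93.8 and 39.6 CPM in 1Mek2 MarginalZone libraries, against 19.1, 23.9 and 21.9 CPM in wt. These groups did not overlap, but the difference did not pass (1.93 ± 0.68, adjusted p = 0.519).

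Several members differed between the 2 library types within a subset. Ccr7 had 464 CPM in the type 1 ABC library and 3.23 to 122 CPM in type 2 ABC libraries. In Follicular it had 508 and 668 CPM in type 1, against 91.4 to 202 CPM in type 2, and in MarginalZone 196 CPM in type 1, against 15.9 to 37.3 CPM in type 2. Cxcr5 was also higher in type 1 in all 4 typed subsets, with 681 CPM against 23.4 to 246 CPM in ABC. Follicular type 1 libraries had 648 and 865 CPM of Cxcr5, against 419 to 449.6 CPM in type 2. Gpr183 had 326 and 334 TPM in type 1 Follicular libraries, against 89.9 to 181 TPM in type 2. In the opposite direction, Follicular Cxcr4 had 18.8 and 32.0 CPM in type 1, against 79.0 to 201 CPM in type 2. Klf2 had 36.3 and 40.5 CPM in type 1 Follicular libraries, against 69.9 to 156 CPM in type 2. Because types were read from expression values and each subset held only 1 to 3 type 1 libraries, these are descriptions without a test. Leaving out the type 1 Follicular library of a genotype changed several calls against Follicular. Without Follicular_wt replicate 4, Itga4 (-1.54) and Cxcr4 (-1.64) passed in wt Immature, and Cxcr4 (-2.04) passed in wt Plasma. Gpr183 then also passed in wt Immature on log2(TPM + 1) (-0.87). Without Follicular_1Mek2 replicate 2, Cxcr4 passed in 1Mek2 Immature (-1.52), GC (-1.14) and Plasma (-1.60), Itga4 in 1Mek2 Immature (-1.14), and Klf2 in 1Mek2 Plasma (-1.63).

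**Figure D4:**
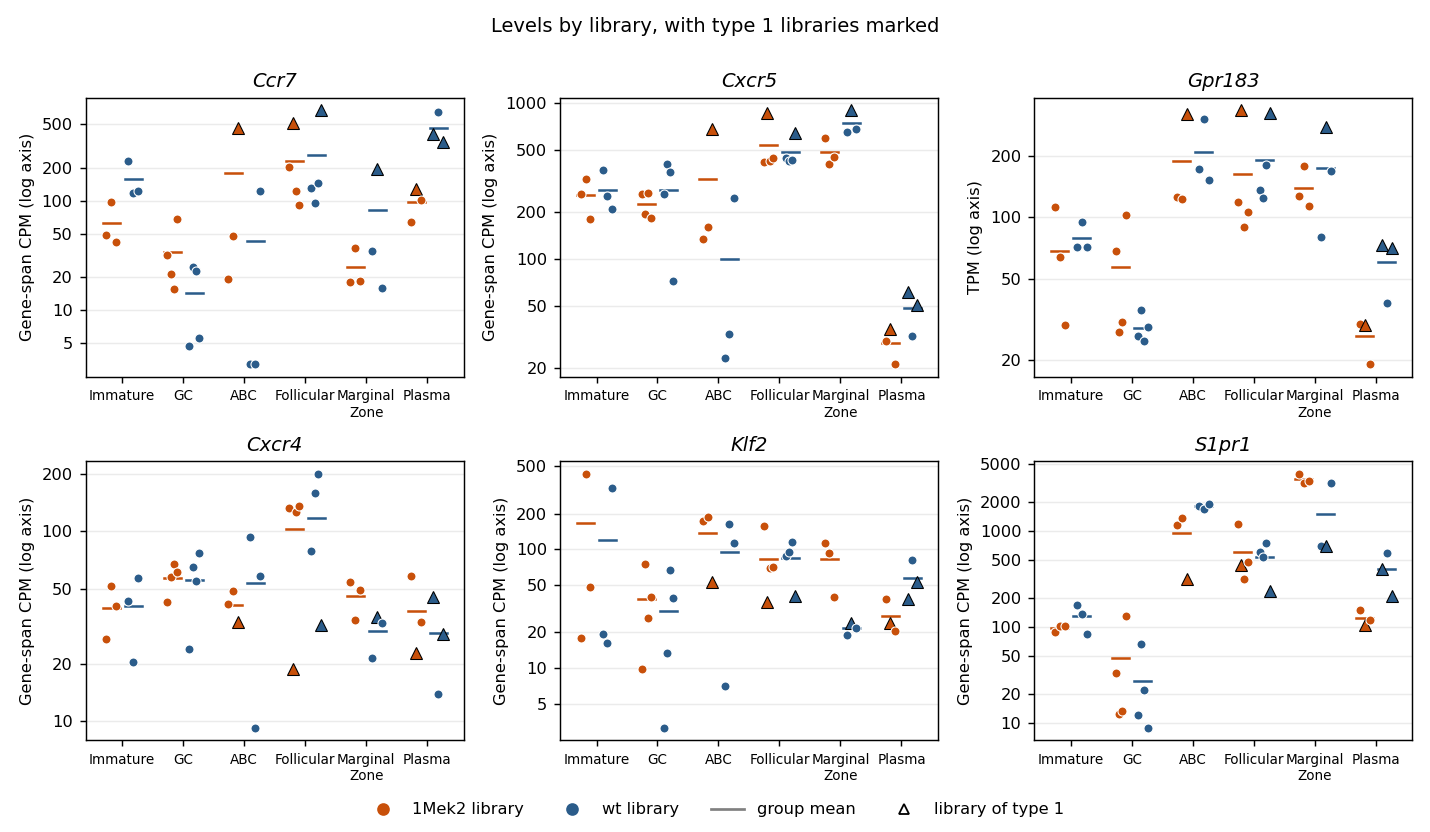
Gene-span CPM (TPM for Gpr183; log axes) of 6 of the members in each library, by subset, 1Mek2 left of wt, with lines at the group mean and triangles for type 1 libraries. Ccr7 and Cxcr5 stood higher in type 1 in ABC, Follicular and MarginalZone, and Cxcr4 and Klf2 stood lower in type 1 Follicular libraries.

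Klf2, the transcription factor of the set, passed the reported edgeR count test in no comparison. Other tests and settings called it lower than in Follicular in some subsets. Without a low-count filter, edgeR gave -1.48 (adjusted p = 0.0168) in wt GC and -1.45 (adjusted p = 0.0427) in 1Mek2 Plasma. With a library type term, edgeR gave -1.83 (adjusted p = 0.0323) in wt MarginalZone. Without GC_wt replicate 4, limma on log2(TPM + 1) gave -1.97 (adjusted p = 0.0493) in wt GC. DESeq2 gave -1.88 (adjusted p = 0.000565) in wt MarginalZone and -1.38 (adjusted p = 0.0394) in 1Mek2 Plasma, limma on log2(TPM + 1) gave -2.40 ± 0.52 (adjusted p = 0.00788) in 1Mek2 Plasma, and voom gave -1.94 (adjusted p = 0.0492) in wt GC. Without Immature_wt replicate 3 it passed in wt Immature (-1.47, adjusted p = 0.0136), and without the animals read as male it was higher in 1Mek2 Immature (1.71, adjusted p = 0.0332). In Immature it had 18.0, 429 and 48.5 CPM in 1Mek2, against 19.2, 16.3 and 326 CPM in wt libraries. Each genotype had a single high library, from animals 570 (1Mek2) and 487 (wt), and the GC libraries of these animals were also the highest of their genotype in CPM, at 75.4 and 66.8 CPM. The other GC libraries had 9.85, 26.5 and 40.0 CPM in 1Mek2 and 3.16, 13.3 and 38.9 CPM in wt. In TPM the highest wt GC library was instead replicate 4, at 95.3 TPM, with 82.8 TPM in that of animal 487. Replicate 4 came from animal 565, whose left-out Immature library had 1230 TPM of Klf2. This pattern was picked out after the values were seen.

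In the average genotype effect over subsets, 4.66% of all genes were higher and 1.4% lower in 1Mek2. Of the wider homing programme, 2 of 16 tested homing receptors outside the set were higher in 1Mek2, Ccr8 (1.78) and the second sphingosine-1-phosphate receptor S1pr4 (1.03 ± 0.29, adjusted p = 0.025), and 2 were lower, Ccr9 (-1.67), which is also 1 of the plasmacytoid dendritic markers above, and the lysophosphatidylserine receptor Gpr174 (-1.07 ± 0.29, adjusted p = 0.019). Of 14 adhesion genes, the integrin chain Itgav was lower (-0.74 ± 0.23, adjusted p = 0.039) and none was higher. Of 29 signalling genes, 3 were higher, Rac2, Fermt3 and Coro1a, which act on the actin cytoskeleton and on integrins, and 2 were lower, the G protein regulator Rgs18 (-1.84) and Apbb1ip (-0.72), an adaptor of integrin activation. Among 16 Klf family and control genes, the MEF2 family member Mef2a fell by 0.78 ± 0.22 (adjusted p = 0.022), and 0 of 12 ligand genes passed. Ccr9, Rgs18 and Mef2a, lower in this average, were higher in wt ABC than in wt Follicular libraries. Rac2 and Coro1a, higher in this average, were lower there. The other genes called in this average are not among those named for wt ABC below. Only the 2 largest calls per direction of each list are named there, so this does not show whether the other genes differ in wt ABC. The part of the wt ABC libraries in these averages was not tested. Within subsets the list genes called were Madcam1 (7.41 ± 1.17, adjusted p = 0.0011), the ligand of alpha4 beta7, and Rgs16 (4.35 ± 1.18, adjusted p = 0.042), both higher in 1Mek2 Immature. In that contrast 0.81% of all genes were higher. Both were low in wt Immature libraries, with 1 to 7 counts of Madcam1 and 2 to 12 of Rgs16. Madcam1 (6.32) and Rgs16 (6.64) were also higher in wt Plasma than in wt Follicular libraries. The Plasma markers were higher in 1Mek2 than in wt Immature libraries, as given above, and their part in these differences was not tested.

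Against Follicular, the same lists split in GC. In wt GC, where 14.6% of all genes were higher and 10.5% lower, 3 of 12 tested homing receptors were higher, led by S1pr2 (log2 fold change 7.58), the confinement receptor of germinal centres, and Cxcr3 (3.25), and 4 were lower, led by S1pr4 (-3.16) and Gpr174 (-3.14). Adhesion genes had 3 of 13 higher, led by Itgb1 (2.22) and Cd44 (1.32), and 3 lower, among them Selplg (-2.09), a ligand of selectins. Signalling genes had 3 of 28 higher, led by the G protein regulators Rgs13 (9.83) and Rgs10 (3.90), and 7 lower, led by the arrestin Arrb1 (-3.20) and Rasgrp2 (-3.02). The Klf family and control list had 0 of 16 higher and 7 lower, led by Klf3 (-3.15) and Zfp36l2 (-2.60), with a list median of -1.18. Ligand genes had 0 of 8 higher and 2 lower, the sphingosine-1-phosphate transporter Spns2 (-3.02) and the kinase Sphk2 (-2.42). In 1Mek2 GC, where 16.3% of all genes were higher and 14.6% lower, homing receptors had 1 of 12 higher, S1pr2 (6.79), and 4 lower, led by Ccr9 (-4.05) and S1pr4 (-2.96). Adhesion genes had 2 of 13 higher, Itgb1 (2.56) and Cd44 (1.92), and 2 lower, Selplg (-2.85) and Icam2 (-1.19). Signalling genes had 4 of 28 higher, led by Rgs13 (9.90) and Rgs1 (5.58), and 7 lower, led by Arrb1 (-3.86) and Arhgef1 (-2.87). The Klf list had 1 of 16 higher, Klf10 (2.07), and 6 lower, led by Klf3 (-2.09) and Mapk7 (-1.96), which encodes ERK5, and ligand genes had 1 of 7 higher, Cyp7b1 (5.15), and 2 lower, Spns2 (-4.90) and Sphk2 (-1.81).

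In wt Immature, where 32.3% of all genes were higher and 7.15% lower, homing receptors had 4 of 13 higher, led by Ccr2 (4.79) and S1pr2 (4.36), and 1 lower, S1pr4 (-0.92). Adhesion genes had 4 of 13 higher, led by Itgax (3.69) and Itgam (1.90), and 0 lower. Signalling genes had 3 of 28 higher, led by Rgs13 (6.72) and Rgs18 (3.78), and 5 lower, led by Arhgef1 (-2.23) and talin, Tln1 (-2.08). The Klf list had 0 of 16 higher and 5 lower, led by Zfp36l1 (-1.74) and Klf7 (-1.35), and ligand genes had 3 of 9 higher, led by Cyp7b1 (5.74) and Fn1 (4.52), and 2 lower, Mfsd2b (-2.36) and Sphk2 (-1.84). In 1Mek2 Immature, where 18.6% of all genes were higher and 12.3% lower, homing receptors had 2 of 12 higher, S1pr2 (5.27) and Ccr2 (4.67), and 1 lower, S1pr4 (-2.31). Adhesion genes had 2 of 13 higher, Itgb1 (2.01) and Cd44 (1.98), and 0 lower. Signalling genes had 5 of 29 higher, led by Rgs13 (8.32) and Rgs1 (5.26), and 10 lower, led by Arhgef1 (-2.71) and Arrb1 (-2.36). Of the Klf list, 1 of 16 was lower, Zfp36l1 (-2.004), and ligand genes had 4 of 10 higher, led by Cxcl13 (8.17) and Madcam1 (7.77), and 2 lower, Spns2 (-2.86) and Sphk2 (-2.11).

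In wt ABC, where 11.9% of all genes were higher and 8.3% lower, homing receptors had 2 of 13 higher, Ccr2 (8.49) and Ccr9 (3.89), and 1 lower, the scavenging receptor Ackr3 (-4.32). Adhesion genes had 3 of 13 higher, led by Itgax (8.09) and Cd44 (3.46), and 1 lower, Cd22 (-1.58). Signalling genes had 4 of 27 higher, led by Rgs18 (6.20) and Gnaq (3.23), and 2 lower, Rac2 (-2.78) and Coro1a (-2.70). The Klf list had 3 of 16 higher, led by Mef2a (2.99) and Zfp36l1 (2.91), and ligand genes had 1 of 6 higher, Sgpl1 (2.95), and 1 lower, Vcam1 (-5.98). In 1Mek2 ABC, 0 genes of the 5 lists passed. MarginalZone libraries of both genotypes had 1 homing receptor higher, Ackr3, by 7.13 in 1Mek2 (1 of 12) and 6.88 in wt (1 of 11). Ackr3 had 192 to 511 CPM in 1Mek2 MarginalZone, against 0.327 to 4.28 CPM in 1Mek2 Follicular libraries, and 196 to 900.5 CPM in wt MarginalZone, against 3.29 to 4.29 CPM in wt Follicular libraries. In 1Mek2 MarginalZone, Zfp36l1 was also higher (2.07) and Sphk2 lower (-3.08).

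In wt Plasma, where 12.2% of all genes were higher and 5.53% lower, homing receptors had 7 of 16 higher, led by the leukotriene receptor Ltb4r1 (10.5) and Ccr8 (9.87), and 2 lower, Cnr2 (-2.81) and Gpr174 (-2.01). Adhesion genes had 8 of 14 higher, led by Itgax (6.64) and Itgam (4.10), and 1 lower, Cd22 (-5.33). Signalling genes had 7 of 28 higher, led by Rgs16 (6.64) and Rgs1 (5.09), and 1 lower, Fermt3 (-1.01). The Klf list had 1 of 16 higher, Klf4 (2.53), and 3 lower, led by Mef2c (-2.78) and Zfp36l1 (-1.76), and ligand genes had 3 of 9 higher, led by Fn1 (6.496) and Madcam1 (6.32). In 1Mek2 Plasma, where 13.9% of all genes were higher and 5.95% lower, homing receptors had 7 of 16 higher, led by Ccr10 (9.34) and Ltb4r1 (8.73), and 3 lower, led by Cnr2 (-4.93) and P2ry10 (-1.93). Adhesion genes had 6 of 14 higher, led by Itgb1 (3.45) and Cd44 (3.36), and 2 lower, among them Cd22 (-5.27). Signalling genes had 7 of 28 higher, led by Rgs1 (5.17) and Rgs16 (4.56), and 2 lower, Grk6 (-1.44) and Coro1a (-1.11). Of the Klf list, 1 of 16 was lower, Foxo1 (-1.55), and ligand genes had 4 of 10 higher, led by Sphk1 (6.998) and Fn1 (6.46), and 1 lower, Spns2 (-3.51). Itgax, Itgam, Ltb4r1 and Fn1 are also known from myeloid cells, whose markers are given above, and their part in these counts was not tested. Several genes with large differences, such as Ltb4r1, Ccr8, Ccr10 and Rgs16, had at most 10 counts in each Follicular library of that genotype, so their fitted fold changes depend on the small count that edgeR adds.

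Across the 12 group means of log2 CPM, the genes most like each member were, as a description over groups that share animals, Rin3 for S1pr1 (Pearson r = 0.98), Gstm1 for Ccr7 (0.93), Cd40 for Cxcr5 (0.97), Fcer2a for Cxcr4 (0.82), Dop1b for Itga4 (0.98), Madd for Itgb7 (0.96) and Tspan32 for Ccr6 (0.97). Cxcr4 and Klf2, whose match was LOC105244755, had the least similar best matches, both at 0.82. Among the 36 pairs of members in TPM, S1pr1 was most like Gpr183 (r = 0.88) and Itga4 (0.87), and Cxcr4 and Itgb7 were least alike (-0.25).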

How the data were processed

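Polyadenylated RNA of sorted mouse B cells was sequenced; per the submitters' processing notes the tools included Trim Galore 0.6.5, STAR 2.7.11a and featureCounts 2.0.3 on GRCm39. The authors deposited a table of raw counts, which the values show to be counted over whole gene spans (introns included), and a table of TPM from exon reads. The strand setting is not given in the sources used here. Gpr183, which lies inside the span of Ubac2, had 0 counts in every library despite its exon reads and was therefore tested in TPM, as log2(TPM + 1) with limma trend for entries of at least 1 TPM in at least 3 libraries, and it is absent from the average and interaction tests. Cxcr5, Itga4 and Ccr6 spans also overlap other genes, so part of their reads may be uncounted. Exon reads were recovered from TPM and gene length; 100% of the 705602 low values checked came out whole within 0.02, and they served as an alternative.

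Counts were tested with edgeR 4.0.16 (TMM, filterByExpr, robust quasi-likelihood) on the whole table for each of 16 comparisons, with Benjamini-Hochberg adjustment at 0.05; SE were derived from the fold change and the F statistic. The average genotype effect used limma 3.58.1 voom with the animal as random block (within-animal correlation 0.0729). Fits were tested on simulated data. Animal numbers come from the library names. The same animal gave both subsets in part of the comparisons, and same-animal deviations from the group means correlated at -0.08 to 0.66. The animal was therefore the block in an alternative fit, run where at least 2 animals gave both subsets. Only those animals enter its estimate. No 2 of the 40 libraries held identical counts. Nothing says more of how animals were bred or housed, so p-values measure the spread between these mice. Members, gene lists and tests were chosen with earlier results of these data known. All 9 members are named; list genes are named when called between genotypes or among the 2 largest per direction against Follicular, except 1 that is not reported here, and the most similar gene per member by Pearson r among genes of mean CPM of at least 5. Promoters are from RefSeq on GRCm38.p6 and no coordinates were converted.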

Additional observations from a re-analysis of the deposited data

Results flagged for a closer look

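A library far from the others of its group was sought in 36 sets of 4 values (9 genes in the 4 groups of 4 libraries), where chance alone gives about 1 in 20. Ccr7 had 668 CPM in Follicular_wt replicate 4 and Cxcr5 648 CPM in the same library, both the highest of 4. Cxcr5 had 865 CPM, Gpr183 334 TPM and Cxcr4 18.8 CPM in Follicular_1Mek2 replicate 2, the first 2 highest and the last lowest of their group. Both libraries are the type 1 libraries of their groups. Ccr6 had 322 CPM in GC_1Mek2 replicate 4, the highest of 4. S1pr1 moved in opposite directions between subsets, with a ratio of 1Mek2 over wt mean CPM of 2.31 in MarginalZone, 0.525 in ABC and 0.312 in Plasma; these pairs of subsets were not tested against each other, and the test over all 6 subsets gave an adjusted p of 0.262 (edgeR). Klf2 had 1230 TPM in the left-out Immature library, above the other Immature libraries.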

How the results depend on the processing

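No call reversed direction. Counts of members called that moved by over 1.5 times were as follows, and smaller changes are not listed. Between genotypes in Immature (1 in the reported test), RLE scaling, no low-count filter, DESeq2, voom and adding the left-out library each gave 0. In Follicular (0) a library type term gave 1. In Plasma (0) no filter gave 2, DESeq2 3 and the type term 3. Against Follicular in wt, Immature (3) gave 5 without a filter, ABC (2) gave 1 with the type term and 0 without animals read as male, and MarginalZone (0) gave 1 without a filter, 3 with DESeq2, 1 with the animal as replicate block and 3 with the type term. Against Follicular in 1Mek2, Immature (4) gave 7 without a filter, and MarginalZone (3) gave 1 with the animal block and 1 with the type term. The interaction test (0) gave 1 in exon reads, and TPM calls over all comparisons (35) were 20 without a filter. Leaving out 1 library gave ranges of 0 to 1 for the Immature genotype test and 0 to 0 for the 5 others, and 0 to 1 for the average effect. Against Follicular in wt the ranges were 3 to 5 (Immature), 5 to 5 (GC), 0 to 4 (ABC), 0 to 0 (MarginalZone) and 2 to 4 (Plasma), and in 1Mek2 3 to 6, 4 to 6, 0 to 0, 0 to 3 and 2 to 5. The cause of these changes was not tested.

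Replicate numbers do not pair animals across genotypes (correlations of same-numbered deviations -0.62 to 0.34). With the replicate number as a block, Immature called 2 members, Ccr7 (-0.94, adjusted p = 0.016) and Itga4 (-1.13, adjusted p = 0.00166). That fit kept only replicates 2 and 3 of each genotype. It matches animals that are not paired, so no conclusion was drawn from these calls. RLE scaling moved the all-gene median by -0.37 in the ABC genotype contrast and by -0.10 in the average. Against Follicular it moved by 0.23 in wt ABC, -0.17 in wt Immature and 0.14 in 1Mek2 Immature, and no called member changed sign. Exon reads alone ended the calls of S1pr1 in wt Immature (adjusted p = 0.0956), Ccr7 in 1Mek2 Immature (0.0841), Cxcr5 in 1Mek2 GC (0.131) and Itga4 in 1Mek2 MarginalZone (0.0652) against Follicular. The type term ended those of Itga4 in wt ABC (0.0558) and of S1pr1 (0.065) and Itga4 (0.0624) in 1Mek2 MarginalZone. The only type 1 library in the wt ABC contrast was Follicular_wt replicate 4, and in the 1Mek2 MarginalZone contrast Follicular_1Mek2 replicate 2. There the term acts much as leaving that library out does, so it is not a separate check. The number of all genes called varied more than that of members: over the other settings it ran from 5 to 1579 for the Immature genotype contrast (197 in the reported test). The GC contrast gave 0 to 142 (9 reported) and that of ABC 0 to 1445 (0). Follicular libraries gave 0 to 195 (0), MarginalZone libraries 0 to 207 (0), Plasma libraries 0 to 1080 (9) and the average 847 to 1740 (1527). Against Follicular in wt it ran from 999 to 18109 (Immature, 7938), 2573 to 13141 (GC, 3923), 387 to 5342 (ABC, 2903), 1 to 501 (MarginalZone, 50) and 1859 to 4005 (Plasma, 2754), and in 1Mek2 from 1620 to 12971 (5030), 3026 to 9574 (4527), 0 to 401 (0), 115 to 1951 (373) and 1140 to 4288 (2944).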

Other observations

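Ccr6 in ABC_wt replicate 1 had 248 gene-span CPM but 0.718 TPM in exons, whereas the other wt ABC libraries had 317 and 151 CPM with 223 and 105 TPM. The Ccr6 span overlaps that of Gm33799 on the other strand.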
